A study of Rattus norvegicus with 16 samples.

Results

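The 7 genes described here, Prg4, Has1, Has2, Clic5, Tspan15, Cd55 and Vcam1, are known for the lining of joints and for the making of hyaluronan. They were taken by name from the 14476 genes of the count table, which held all 7. The question was whether the tissue that forms around a bone cement spacer carries the transcripts of a synovium-like lining. Each of 4 Sprague-Dawley rats had a plated osteotomy on both sides. On one side a spacer of polymethyl methacrylate (PMMA), the cement of the Masquelet procedure, was put into the defect, and the other side was left empty as the control. Tissue was taken 4 weeks after surgery, and all 4 groups were thus operated and plated bone defects of the same 4 animals, with no unoperated bone, no joint synovium and no earlier or later time among them. The groups were the induced membrane around the spacer (IM), the tissue of the empty osteotomy, which the labels call pre-fibrous non-union (PFNU), and the bone that bordered each of them, called PMMA bone in the spacer limb and BNED in the empty limb, with 1 library per rat in each. The sex and age of the rats are not given in the sources used here.

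Synovium is the soft tissue that encloses a joint cavity. Its innermost layer, the lining, is made of fibroblasts and macrophages without a basement membrane, and the fibroblasts secrete lubricin and hyaluronan into the joint fluid. Lubricin, the product of Prg4, is a mucin-like protein that lowers friction between surfaces. Hyaluronan is a long unbranched sugar polymer that hyaluronan synthases build at the plasma membrane from UDP-glucuronic acid and UDP-N-acetylglucosamine. CD55, CLIC5, TSPAN15 and VCAM1 are found on or in lining fibroblasts, and none of them is limited to those cells.

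The libraries held 40472228 to 76815879 counts, and all 7 genes passed the filter on low counts that left 12857 genes for testing. Levels are given as CPM, the counts of a gene scaled to the size of its library, and are compared only within a gene because gene lengths were not used. Tissue other than lining differed between libraries. Markers of skeletal muscle, 14 contractile and related genes, made up 2.05% of the membrane library in rat 1, 3.88% in rat 2, 14.5% in rat 3 and 18.8% in rat 4. They made up 5.68 to 14.0% of PFNU libraries, against 0.173 to 1.11% in PMMA bone and 0.344 to 4.03% in BNED. Erythroid markers, 11 globin and red cell genes, reached 0.0427 to 0.166% in IM, 0.105 to 0.492% in PFNU and 4.44 to 7.75% in BNED. PMMA bone of rat 1 held 8.35% erythroid counts and the other PMMA bones 0.533 to 1.44%, so this library stood apart from its group and is left out in turn wherever it decides a value. Osteoblast and osteocyte markers took 1.44 to 1.79% in PMMA bone, 0.497 to 1.24% in BNED and 0.0638 to 0.670% in the defect tissues. No marker of these lists was at 0 in any whole group.

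**Figure D1:**
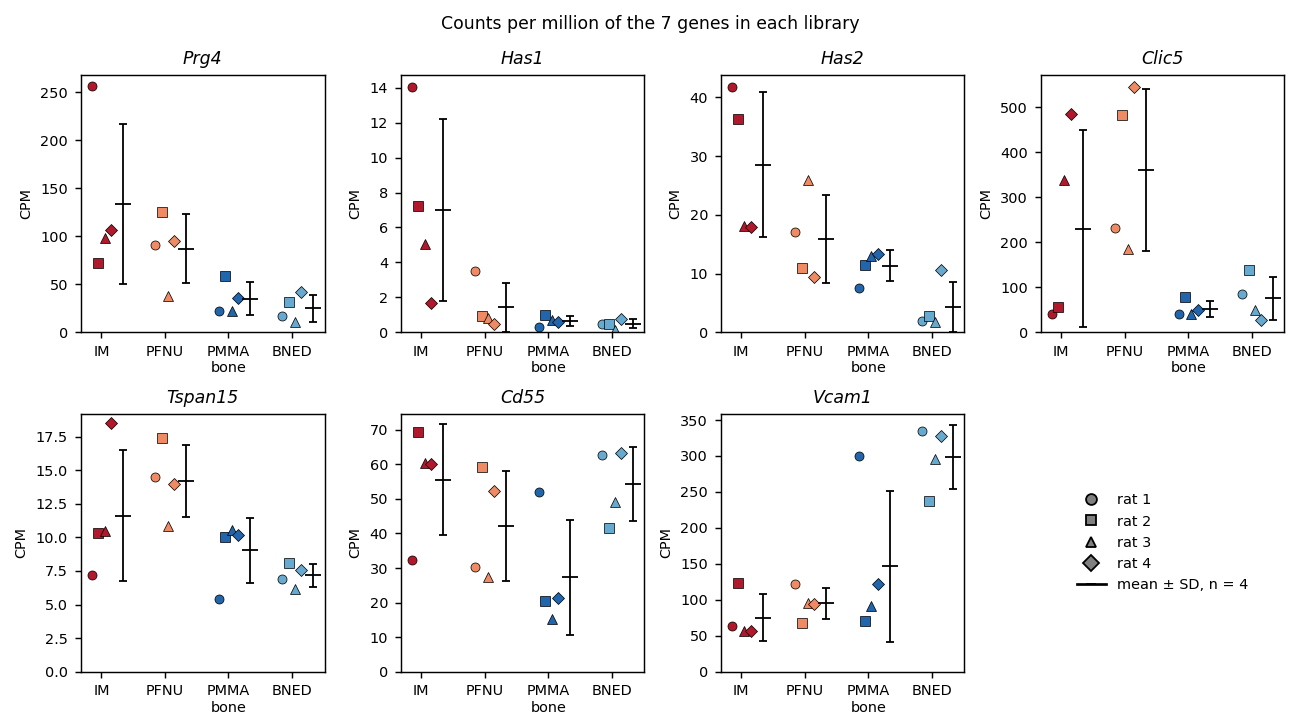
Levels in CPM (vertical axes, linear, from 0) of the 7 genes in each of the 16 libraries, with the mean and SD of each group of 4 beside the points and 1 symbol per rat. Prg4, Has1 and Has2 have their highest mean in the membrane, Vcam1 has its highest mean in BNED, and the PMMA bone of rat 1 (52.0 CPM of Cd55, 301 CPM of Vcam1) lies away from the other PMMA bones.

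Between the membrane and the tissue of the empty defect, the comparison of defect tissue with and without a spacer, 0 of the 7 genes were called at an adjusted p under 0.05 by edgeR, where 0.863% of all genes tested were (0.366% higher and 0.498% lower). The libraries of the 2 tissues overlapped for all 7 genes, and were free of overlap for 7.26% of all genes. Has1 and Cd55 were higher in the membrane in 4 of 4 rats, as were 11.4% of all genes, and 0 members were lower in 4 of 4 rats, as were 10.1%. At an unadjusted p under 0.05 the count was 1, for Has1, and DESeq2 called 1, also Has1, beside 4.45% of all genes. The largest difference was that of Has1, the synthase induced in inflamed synovium, at 4.88-fold higher in the membrane. Prg4, Has2 and Cd55 had means 1.32 to 1.80 times higher in the membrane, and Clic5, Tspan15 and Vcam1 had means 1.22 to 1.57 times higher in PFNU, none of them beyond the spread between rats. The median log2 fold change of the 7 genes was 0.40, beside 0.01 over all genes tested.

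Against the bone next to it, the membrane was higher in 3 of the 7 genes and lower in 0. In that comparison 22.2% of all genes were called, with 11.3% of all genes higher and 11% lower. The 3 were Prg4, at 3.82-fold, Has1, at 10.8-fold, and Clic5, at 4.40-fold. In the limb without a spacer, the same comparison of PFNU with BNED called 5 of 7, beside 30.2% of all genes. Prg4, Has2, Clic5 and Tspan15 were higher in PFNU, where 15% of all genes were, and Vcam1 was lower, where 15.2% were. The median log2 fold change of the 7 genes was 1.33 for IM against PMMA bone and 1.57 for PFNU against BNED, beside 0.03 and 0.04 over all genes. The groups did not overlap for 3 of the 7 genes in each of these comparisons, beside 19.5% and 39.9% of all genes. Between PFNU and BNED, 3 genes were higher in 4 of 4 rats and 1, Vcam1, was lower in 4 of 4, beside 29.5% and 28.2% of all genes. With the erythroid marker level as a covariate, 84.8% of whose variance lay between groups, none of these 8 calls held. That fit called 11.6% of all genes for IM against PMMA bone and 0% for PFNU against BNED, where the 5 lost calls therefore say nothing about the members. With the muscle marker level as a covariate, 73.3% of whose variance lay between groups, Has1 in IM against PMMA bone and Has2 in PFNU against BNED kept their calls, beside 6.28% and 11.3% of all genes. In both fits the covariate and the tissue cannot be told apart. In bulk tissue, fewer cells that make a transcript and less transcript per cell cannot be told apart.

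Between PMMA bone and BNED, 0 of 7 genes were called, beside 4.91% of all genes (3.51% higher and 1.4% lower), and the groups overlapped for all 7, where 19.1% of all genes had no overlap. In the alternatives, limma-voom with sample quality weights called 4, beside 48.6% of all genes. Without PMMA bone of rat 1 the count was 2, Cd55 and Vcam1, both lower beside the spacer, beside 19.9% of all genes. Without BNED of rat 4 it was 1, Has2, beside 2.7%. The interaction, which asks whether the spacer difference in defect tissue is unlike that in bone, called 0 of 7 and 0% of all 12857 genes, with 1149 at an unadjusted p under 0.05. For the interaction DESeq2 called 136 genes and limma-voom 218, and Cd55 was the member among the limma-voom calls.

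**Figure D2:**
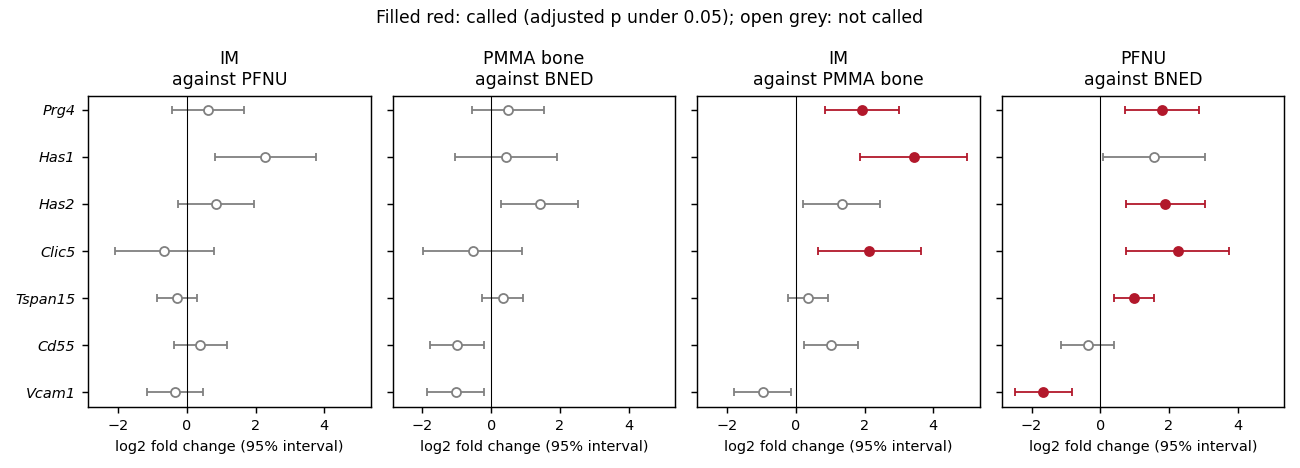
Log2 fold change (horizontal axes) with its 95% interval for the 7 genes in 4 comparisons, positive values meaning higher in the group named first. Filled points passed the adjusted threshold: 0 for IM against PFNU and for PMMA bone against BNED, 3 for IM against PMMA bone and 5 for PFNU against BNED.

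Prg4 was measured at 256, 72.5, 97.9 and 107 CPM in the membranes of rats 1 to 4 and at 90.9, 125, 38.0 and 94.6 CPM in PFNU. PMMA bone held 22.3, 58.6, 22.7 and 36.2 CPM and BNED 17.0, 31.2, 10.4 and 42.1 CPM. Every membrane was above every bone library, whereas the 2 defect tissues overlapped widely and the membrane of rat 1 was the highest library of all. In order, the means were 133 ± 83.0 (IM), 87.1 ± 36.0 (PFNU), 34.9 ± 17.0 (PMMA bone) and 25.1 ± 14.2 CPM (BNED) (SD, n = 4), and neighbours in this order overlapped. Lubricin transcript was 3.82-fold higher in IM than in PMMA bone (log2 1.93, SE 0.51, adjusted p = 0.0154, higher in 4 of 4 rats). It was 3.46-fold higher in PFNU than in BNED (log2 1.79, SE 0.51, adjusted p = 0.0158, higher in 4 of 4 rats). The first call was kept with each library left out in turn, at an adjusted p of at most 0.0497, and the second was lost without BNED of rat 1, at 0.0521. With the muscle covariate the values were 2.00 and 1.87 (adjusted p = 0.0907 and 0.131), and with the erythroid covariate 1.23 and 1.10 (0.392 and 0.445). IM and PFNU differed by 0.61 on the log2 scale (95% interval -0.43 to 1.66, adjusted p = 0.605), and by 0.09 when the membrane of rat 1 was left out. Cartilage and tendon cells also make lubricin. Over 16 libraries log2 Prg4 correlated with the mean log2 level of the cartilage markers at r = -0.16 (0.07 within groups). With that of the tendon and ligament markers it correlated at 0.57 (0.37 within groups). Larger values were those with erythroid markers, -0.79 (-0.16 within groups), osteoblast and osteocyte markers, -0.78 (-0.51), and endothelial markers, 0.72 (0.09). The part of tissue mixture was not tested. These are descriptions of 16 libraries that share 4 animals.

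The means of both hyaluronan synthases, Has1 and Has2, had the same order as those of Prg4, IM above PFNU above PMMA bone above BNED. Has1 was low everywhere. It stood at 14.0, 7.23, 5.05 and 1.70 CPM in the membranes of rats 1 to 4 and at 3.50, 0.954, 0.810 and 0.467 CPM in PFNU. Each membrane was thus above the PFNU of its own rat, while the membrane of rat 4 was below the PFNU of rat 1. PMMA bone held 0.280, 0.985, 0.708 and 0.609 CPM and BNED 0.484, 0.493, 0.162 and 0.787 CPM, the latter from 8 to 42 counts per library. All 4 membranes were above all 8 bone libraries, and the levels in PFNU and bone overlapped. Against PMMA bone, Has1 was 10.8-fold higher in IM (log2 3.43, SE 0.73, adjusted p = 0.00563), a call kept with any 1 library left out and lost with the erythroid covariate (log2 0.79, adjusted p = 0.645). Against PFNU it was 4.88-fold higher (log2 2.29, SE 0.69, 95% interval 0.81 to 3.76, unadjusted p = 0.00473, adjusted p = 0.127). This difference passed in DESeq2 (adjusted p = 0.0188) and in edgeR without PFNU of rat 1 (log2 3.23, adjusted p = 0.0474), and did not pass in the other alternatives. PFNU and BNED differed by 1.57 (95% interval 0.09 to 3.06, adjusted p = 0.0976). Over 16 libraries Has1 correlated with the erythroid marker level at -0.85 (-0.61 within groups), and the part of tissue mixture was not tested.

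Has2, the synthase with the broadest expression in mesenchymal tissue, was measured at 41.8, 36.3, 18.2 and 17.9 CPM in IM and at 17.1, 10.9, 25.9 and 9.43 CPM in PFNU. The PFNU of rat 3 was above the membranes of rats 3 and 4, so the groups overlapped. PMMA bone held 7.59, 11.5, 12.9 and 13.3 CPM, below every membrane, and BNED 1.94, 2.76, 1.78 and 10.7 CPM, with rat 4 apart from the other 3. PFNU was 3.70-fold above BNED (log2 1.89, SE 0.54, adjusted p = 0.0164), a call lost without BNED of rat 1 (adjusted p = 0.0526) or rat 3 (0.0508) or with the erythroid covariate (log2 0.86, 0.615). IM was 2.52-fold above PMMA bone with no overlap, and missed the threshold (log2 1.33, adjusted p = 0.0791). It passed in DESeq2 (adjusted p = 0.0337), with only those 2 groups in the fit (0.0476) and with a muscle covariate (log2 2.62, 0.0148). It did not in limma-voom (log2 0.81, adjusted p = 0.128), with the rat block (0.0985) or with the erythroid covariate (0.41, 0.807). PMMA bone was above BNED in 4 of 4 rats, as were 24.4% of all genes (log2 1.41, adjusted p = 0.128), and without BNED of rat 4 the difference was 2.39 (adjusted p = 0.0289). IM and PFNU differed by 0.85 (95% interval -0.26 to 1.96, adjusted p = 0.466). Has2 correlated over 16 libraries with the erythroid marker level at -0.82 (-0.33 within groups) and with the endothelial marker level at 0.82 (0.28).

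The promoters of Has1 and Vcam1 are shown because these genes had the largest difference in favour of the membrane and of bone, respectively. Each is the 250 bases before the RefSeq transcription start (build GRCr8, minus strand, Has1 at chr1:67378445-67378694 and Vcam1 at chr2:206742784-206743033), written 5′ to 3′ with motif matches in capitals. RefSeq promoters were found for 6 of the 7 genes. The count files were made on build rn5, and no position was carried over between the builds.
Has1: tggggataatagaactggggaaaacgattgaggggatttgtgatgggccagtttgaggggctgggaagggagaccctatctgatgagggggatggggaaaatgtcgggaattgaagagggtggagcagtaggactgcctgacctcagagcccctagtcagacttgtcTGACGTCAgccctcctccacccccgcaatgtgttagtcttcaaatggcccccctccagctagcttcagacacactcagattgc
Vcam1: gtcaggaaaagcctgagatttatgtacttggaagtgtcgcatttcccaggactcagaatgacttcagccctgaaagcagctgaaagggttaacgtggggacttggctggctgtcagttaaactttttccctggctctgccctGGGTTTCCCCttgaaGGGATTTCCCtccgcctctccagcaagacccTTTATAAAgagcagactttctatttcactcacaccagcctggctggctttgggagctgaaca
The motifs searched, on both strands, were TGACGTCA (the cAMP response element), a loose kappaB-type motif (GGG, any 4 bases, then CCC), TGANTCA (AP-1) and TATAAA. In the Has1 window the cAMP response element begins 83 bases before the start, a motif held by 1.59% of 33469 promoters of this length. In the Vcam1 window the kappaB-type motif occurs as GGGTTTCCCC and GGGATTTCCC, beginning 108 and 93 bases before the start, and 9.97% of promoters hold at least 1 match. TATAAA occurs there on both strands, in 2 matches that overlap, and in 12.9% of promoters. TGANTCA, held by 6.34% of promoters, was not among the letters of either window. The promoters of other members, not shown, also held matches. The kappaB-type motif had 2 in Cd55 and 1 in Clic5, and TATAAA had 1 in Prg4. A match describes letters only, and no binding was measured.

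Clic5, a chloride intracellular channel protein that links membrane to the actin cortex and that is made in skeletal muscle as well as in lining fibroblasts, varied most within the membrane. Its levels were 40.8 and 56.3 CPM in the membranes of rats 1 and 2 and 339 and 485 CPM in those of rats 3 and 4. In PFNU they were 232, 482, 185 and 546 CPM, in PMMA bone 40.2, 79.3, 40.6 and 49.2 CPM, and in BNED 86.1, 139, 50.5 and 28.1 CPM. The membranes of rats 1 and 2 thus lay within the range of bone and those of rats 3 and 4 within that of PFNU, which is the order of the muscle marker shares given above. Over 16 libraries log2 Clic5 and the muscle marker level correlated at r = 0.91, and at 0.87 within groups. Clic5 was 4.40-fold higher in IM than in PMMA bone (log2 2.14, SE 0.70, adjusted p = 0.0405) and 4.76-fold higher in PFNU than in BNED (log2 2.25, SE 0.70, adjusted p = 0.0262). With the muscle marker level as a covariate the 2 values were -1.08 and 0.01, and neither was called. With the erythroid covariate they were 2.80 and 2.98 (adjusted p = 0.138 and 0.157). With rat as a block the first call was lost (adjusted p = 0.0705), as with only those 2 groups in the fit (0.101). It was also lost without IM of rat 3 or 4 or PMMA bone of rat 1, 3 or 4 (adjusted p 0.0826 to 0.159), and the second without PFNU of rat 2 or 4 or BNED of rat 1, 3 or 4 (0.0570 to 0.0746).

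Tspan15, a tetraspanin that partners the sheddase ADAM10, had a narrower range. It stood at 7.18, 10.3, 10.4 and 18.5 CPM in IM, 14.5, 17.4, 10.8 and 14.0 CPM in PFNU, 5.39, 10.03, 10.5 and 10.2 CPM in PMMA bone and 6.90, 8.11, 6.13 and 7.59 CPM in BNED. PFNU was above BNED without overlap, 1.97-fold (log2 0.98, SE 0.28, adjusted p = 0.0163), and the call was lost without PFNU of rat 2 (adjusted p = 0.0536) or BNED of rat 3 (0.0519). IM and PMMA bone overlapped and differed by 0.36 (95% interval -0.23 to 0.95, adjusted p = 0.362). Here too the highest membrane was that of rat 4, which had the highest muscle share. The correlation with muscle markers was 0.75 over 16 libraries and 0.70 within groups. With endothelial markers it was 0.78 and 0.70, and neither part was tested. The PFNU difference was 0.27 with the muscle covariate (adjusted p = 0.663) and 0.89 with the erythroid covariate (0.314).

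Cd55, or decay-accelerating factor, shields cells from complement, serves as a ligand of the adhesion receptor CD97 and is a classical stain of the synovial lining. It was measured at 32.4, 69.4, 60.4 and 60.04 CPM in IM and 30.2, 59.1, 27.3 and 52.2 CPM in PFNU. BNED held 62.8, 41.6, 49.0 and 63.4 CPM, within the range of the membranes, whose mean it nearly equalled (54.2 ± 10.7 against 55.5 ± 16.02 CPM, SD, n = 4). PMMA bone was split, with 52.0 CPM in rat 1 and 20.5, 15.3 and 21.2 CPM in the other 3. The membrane was 2.04-fold above PMMA bone and missed the threshold (log2 1.03, adjusted p = 0.0558), and without PMMA bone of rat 1 the value was 1.55 (adjusted p = 0.00801). It also passed without the membrane of rat 1 (1.23, adjusted p = 0.0201), in DESeq2 (0.0240), in limma-voom (1.51, 0.00711) and with the erythroid covariate (2.95, 0.00542), and not with the muscle covariate (1.26, 0.251) or the rat block (0.0634). Between IM and PFNU Cd55 differed by 0.40 (adjusted p = 0.669), and by 1.21 (0.0505) with the erythroid covariate. PMMA bone was below BNED in 4 of 4 rats, as were 18.4% of all genes (log2 -0.99, SE 0.37, adjusted p = 0.121). Without PMMA bone of rat 1 this difference was -1.51 (adjusted p = 0.00522), and the interaction moved from 1.39 (adjusted p = 0.472) to 1.91 (0.0432). Within groups Cd55 correlated with the erythroid marker level at 0.90, and over all 16 libraries at 0.13, since the membranes had high Cd55 beside the lowest erythroid shares.

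**Figure D3:**
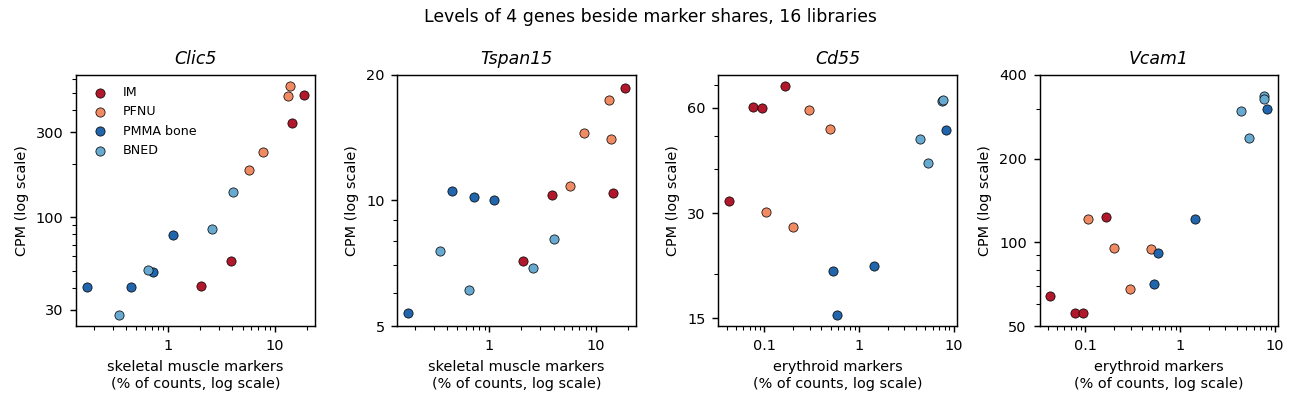
Levels of Clic5, Tspan15, Cd55 and Vcam1 (CPM, log scale) against the share of counts taken by skeletal muscle or erythroid markers (percent, log scale), 1 point per library, coloured by group. Clic5 follows the muscle share across groups (r = 0.91 for log2 Clic5 with the mean log2 level of the muscle markers). Vcam1 is highest in the 5 bone libraries with the most erythroid counts. Cd55 rises with the erythroid share among the bone libraries, and the defect tissues form no single rising band.

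Vcam1, the adhesion molecule that binds integrin alpha4 beta1 on leukocytes, is made by lining fibroblasts and activated endothelium and also by stromal cells and macrophages of bone marrow. It ran opposite to lubricin, with means in the order BNED, PMMA bone, PFNU, IM. BNED held 335, 237, 295 and 328 CPM and PMMA bone 301, 71.2, 91.8 and 122 CPM, PFNU held 121, 68.3, 95.6 and 94.7 CPM and IM 64.2, 124, 55.9 and 56.0 CPM. All 4 BNED libraries were above all 8 of the defect tissues, and PMMA bone overlapped with every other group. Vcam1 was 3.15-fold lower in PFNU than in BNED (log2 -1.65, SE 0.39, adjusted p = 0.00641, lower in 4 of 4 rats), a call kept with each library left out. In the spacer limb IM and PMMA bone differed by -0.97 (adjusted p = 0.0837). That difference passed without the membrane of rat 2 (-1.32, adjusted p = 0.0299) or the PMMA bone of rat 2 (-1.19, adjusted p = 0.0396) and shrank to -0.34 (adjusted p = 0.434) without the PMMA bone of rat 1. PMMA bone was below BNED in 4 of 4 rats (log2 -1.03, adjusted p = 0.128), and the difference was -1.65 (adjusted p = 0.00314) without rat 1. Vcam1 correlated with the erythroid marker level at 0.86 over 16 libraries (0.59 within groups) and with the endothelial marker level at -0.87. With the erythroid level as a covariate the PFNU difference was -0.24 (adjusted p = 0.827). With the muscle level it was -0.83 (adjusted p = 0.247).

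Other genes of the synovial lining were taken from a list of 11, of which 10 were tested. Between IM and PFNU 1 was higher and 0 lower, beside 0.366% and 0.498% of all genes tested, with a median log2 fold change of 0.92. The gene called was Tnfaip6, which encodes TSG-6, a secreted protein that binds hyaluronan and transfers heavy chains to it. It stood at 95.5, 73.1, 20.5 and 11.5 CPM in the membranes of rats 1 to 4 and at 13.3, 9.11, 8.33 and 6.63 CPM in PFNU. Tnfaip6 was 5.37-fold higher (log2 2.42, SE 0.54, adjusted p = 0.0482), with rats 1 and 2 highest as for Has1 and Has2. This call did not hold with rat as a block (adjusted p = 0.104), and leaving out 1 library at a time it held in 2 of 8 fits and in 1 of the 8 other alternatives. It was lost without IM of rat 1 or 2 or any 1 PFNU library, with an adjusted p of up to 0.173. Among the other alternatives, limma-voom and the fit of IM and PFNU alone called 0% of all genes. Podoplanin, Pdpn, a surface glycoprotein of lining fibroblasts, was 2.34-fold higher with no overlap, at 69.8 to 143 CPM against 42.3 to 54.9 CPM, and did not pass (adjusted p = 0.0721), although it did in DESeq2 (0.00705) and without IM of rat 4 (0.0332). In the bones Pdpn was at 120 to 136 CPM beside the spacer, within the range of the membrane. Thy1, which marks the fibroblasts beneath the lining, was at 201 to 766 CPM in IM and 158 to 266 CPM in PFNU (log2 1.12, adjusted p = 0.133).

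Against PMMA bone, 3 of the 10 lining genes were higher in the membrane (Creb5, Tnfaip6 and Fn1), beside 11.3% of all genes. Cdh11, the cadherin that holds lining fibroblasts together, was lower, as were 11% of all genes (log2 -1.25, adjusted p = 0.0227). The Cdh11 call was lost with the muscle covariate (-0.25, adjusted p = 0.741) and the erythroid covariate (-1.81, 0.0822). It was also lost with only those 2 groups in the fit (0.0650). Creb5, a transcription factor known to act on Prg4 in articular cartilage, was 3.31-fold higher (log2 1.73, SE 0.30, adjusted p = 0.00199). That call was kept with each library left out and lost with the erythroid covariate (0.96, adjusted p = 0.181). In PFNU against BNED Creb5 and Hbegf were higher and Cdh11 lower, the last in 2 of 8 fits with 1 library left out. Of all genes 15% were higher there and 15.2% lower. Between the bones Htra1, a secreted protease, was higher beside the spacer (log2 1.54, adjusted p = 0.0228), a call kept in 3 of 8 fits with 1 library left out. It was lost without PMMA bone of rat 2, 3 or 4 or BNED of rat 1 or 3. Those fits called 0% of all genes, so the losses say nothing about Htra1.

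A list for lining macrophages gave 1 call of 9 tested between IM and PFNU, beside 0.863% of all genes, with a median of 1.00. The call was Lyve1, a gene not limited to the lining, and Trem2, Cx3cr1, Vsig4, Tjp1 and F11r were among the 8 not called. General macrophage markers, of which 0 of 9 were called, had 9 of 9 positive values and a median of 1.06, and their part in the result was not tested. Lyve1, a hyaluronan receptor of lymphatic endothelium and of a class of tissue macrophages, was at 50.1, 141, 92.8 and 83.8 CPM in IM and 36.8, 49.8, 25.8 and 22.4 CPM in PFNU. The groups did not overlap, and Lyve1 was 2.72-fold higher in the membrane (log2 1.45, SE 0.29, adjusted p = 0.0349). The call held with rat as a block (adjusted p = 0.0302) and was lost without IM of rat 2 or PFNU of rat 1, 3 or 4 (up to 0.133). It held in 5 of the 8 other alternatives, of which limma-voom and the 2-group fit called 0% of all genes. Against PMMA bone 5 of 9 were higher and 0 lower in IM (Lyve1, Folr2, Trem2, F11r and Vsig4), beside 4 of 9 general macrophage markers (C1qa, C1qb, C1qc and Msr1, median of the 9 markers 1.22). Of all genes 11.3% were higher and 11% lower in that comparison. In PFNU against BNED 5 of 9 were higher (F11r, Tjp1, Folr2, Trem2 and Lyve1), beside 0 of 9 general macrophage markers (median 0.04). Of all genes 15% were higher and 15.2% lower in that comparison. Trem2 lost its first call without IM of rat 2 or PMMA bone of rat 1 or 3 (adjusted p up to 0.0572). Folr2 lost its second without PFNU of rat 1 or 3 or BNED of rat 1 (up to 0.0659), and Tjp1 without BNED of rat 1 (0.0560). Tight junction genes Tjp1 and F11r, which form the barrier of lining macrophages but also of other cells, did not separate IM from PFNU, with log2 differences of -0.17 and 0.05. Of 10 sublining fibroblast genes 0 were called between IM and PFNU, with a median of 0.73. Against PMMA bone 3 were higher (Pi16, Dpt and Col14a1) and Cxcl12 lower. In the limb without a spacer, PFNU against BNED had 4 higher and 2 lower. Between the bones, PMMA bone against BNED had 3 higher and 1 lower, beside 3.51% and 1.4% of all genes.

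The supply of sugar precursors was followed in 8 further genes of hyaluronan synthesis. Between IM and PFNU 1 of the 8 was higher, beside 0.366% of all genes, and the median was 0.39. This was Gfpt2, which catalyses the entry step of the hexosamine pathway that leads to UDP-N-acetylglucosamine. Gfpt2 was at 90.0, 192, 77.2 and 63.1 CPM in IM and 46.1, 24.8, 22.5 and 21.1 CPM in PFNU, with no overlap. It was 3.69-fold higher (log2 1.88, SE 0.37, adjusted p = 0.0299), with 0.0556 under the rat block. The call was lost without IM of rat 1 or 2 or PFNU of rat 2, 3 or 4 (up to 0.127). It held in 4 of the 8 other alternatives, of which limma-voom and the 2-group fit called 0% of all genes. Uap1, which makes UDP-N-acetylglucosamine, differed by 1.13 (adjusted p = 0.0909). Ugdh, which makes UDP-glucuronic acid and is a histochemical mark of lining cells, differed by 0.60 (adjusted p = 0.326), and Has3, at 0.513 to 1.68 CPM in both tissues, by -0.22 (adjusted p = 0.922). Against PMMA bone 4 of 8 were higher in IM, beside 11.3% of all genes: Gfpt2 (6.22-fold), Uap1 (2.80-fold), Ugp2 (3.35-fold) and Gfpt1. In PFNU against BNED 5 of 8 were higher, beside 15% of all genes, with Has3 and the same 4 genes among them. The highest Ugp2 levels in IM, 294 and 463 CPM, were in rats 3 and 4, the membranes with the largest muscle shares, and with the muscle covariate Ugp2 was at 0.27 for IM against PMMA bone (adjusted p = 0.736) and 0.40 for PFNU against BNED (0.542).

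**Figure D4:**
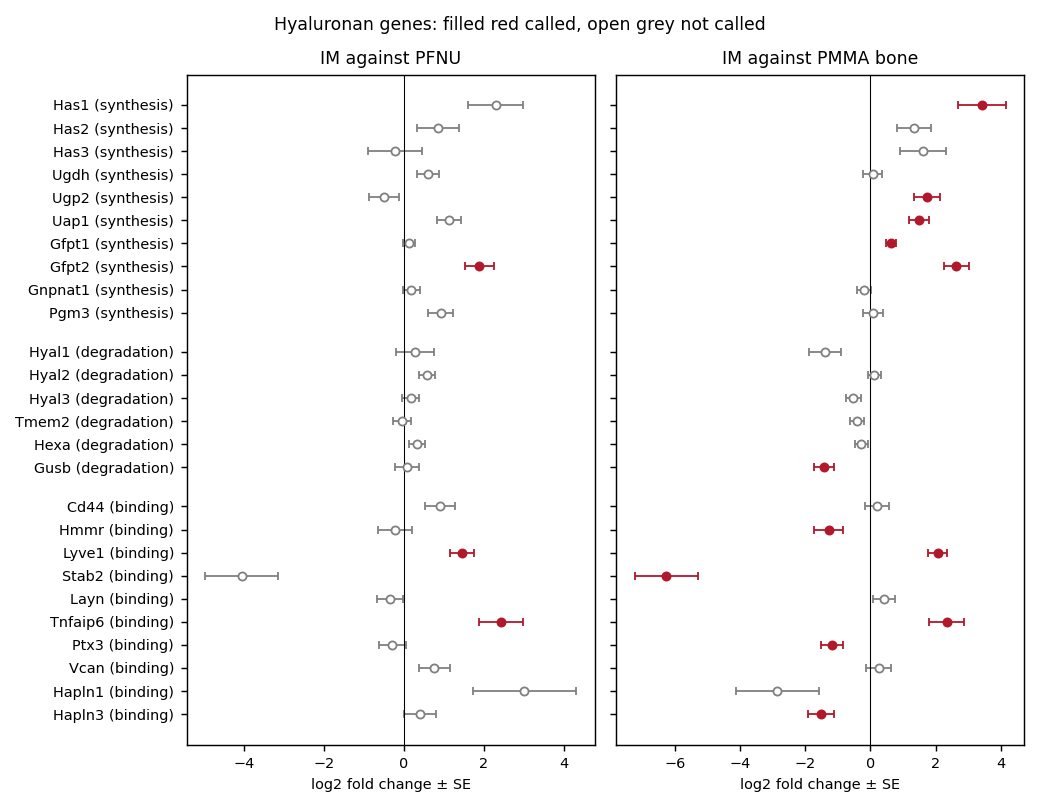
Log2 fold change ± SE (horizontal axes) of genes of hyaluronan synthesis, degradation and binding, for IM against PFNU (left) and IM against PMMA bone (right), filled where called. Gfpt2, Lyve1 and Tnfaip6 are filled in both panels, and Has1 in the right panel, where Gusb lies to the left of 0.

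Genes of hyaluronan degradation did not separate IM from PFNU, with 0 of 7 called, beside 0.863% of all genes, and a median of 0.16. Hyal2, which cuts hyaluronan at the cell surface, stood at 50.8 to 72.6 CPM in IM and 36.4 to 48.2 CPM in PFNU without overlap (log2 0.57, adjusted p = 0.178), and lysosomal Hyal1 differed by 0.28 (adjusted p = 0.846). Against PMMA bone the lysosomal enzyme Gusb was lower in IM, at a log2 value of -1.43 (adjusted p = 0.00594), and 0 of the list were higher. With the muscle covariate Gusb was at -0.77 and not called (adjusted p = 0.275). Between the bones Hyal2 was higher beside the spacer (log2 0.89, adjusted p = 0.0290), a call kept in 2 of 8 fits with 1 library left out. Without PMMA bone of rat 2, 3 or 4 or BNED of rat 1 or 3, 0% of all genes were called. Those losses therefore say nothing about Hyal2. Of 10 hyaluronan-binding genes 2 were higher in IM than in PFNU, Lyve1 and Tnfaip6 again, and the receptor Cd44 differed by 0.89 (adjusted p = 0.262), with 520 and 430 CPM in the membranes of rats 1 and 2 and 243 and 118 CPM in those of rats 3 and 4. Against PMMA bone 2 were higher and 4 lower (Stab2, Hapln3, Ptx3 and Hmmr), beside 11.3% and 11% of all genes. Stab2, a clearance receptor of sinusoidal endothelium, was at 0.0384 to 0.158 CPM in the membrane and 1.36 to 19.2 CPM in PMMA bone, highest there in rat 1.

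Among 8 partners and relatives of Vcam1, 0 were called between IM and PFNU, beside 0.863% of all genes, with a median of 0.02. Itga4, the alpha4 integrin chain that binds VCAM1, differed by -0.08 (adjusted p = 0.933), and Icam1, another ligand for leukocytes, by -0.06 (adjusted p = 0.963). In PFNU against BNED the endothelial selectins Selp and Sele and the integrin chain Itgb1 were higher and Itgb7 was lower, while Vcam1 itself was lower. Of all genes 15% were higher and 15.2% lower in that comparison. Endothelial markers moved beside the selectins, with 9 of 10 higher in PFNU and a median of 1.08, and their part in the result was not tested. Of 8 complement genes and Cd55 relatives 0 were called between IM and PFNU, with a median of 0.25, and Cfb was higher in both defect tissues than in the bone beside them.

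The members did not vary as 1 group. Over 16 libraries Prg4 and Has1 correlated at r = 0.79 (0.52 within groups), Has1 and Has2 at 0.78 (0.61), Prg4 and Has2 at 0.74 (0.32) and Clic5 and Tspan15 at 0.78 (0.62). Among 10008 or 10009 genes that averaged 5 CPM or more, the levels most like Has1 were those of Dcun1d3 (0.91), Gfpt2 (0.91) and Ndn (0.91), and those most like Has2 were Anxa4 (0.95), Lgals3 (0.93) and Prelp (0.93). Prg4 was followed most closely by LOC691995 (0.92) and Vcl (0.90). Clic5 had its nearest patterns in Pde4dip (0.99), LOC100910558 (0.98) and Usp13 (0.98), and Tspan15 in Tspan12 (0.93), Aven (0.92) and Cytl1 (0.92). The nearest to Vcam1 were Ap1s3 (0.98), Smc3 (0.97) and Rfc1 (0.97), and the nearest to Cd55 were Polr2b (0.88), Slu7 (0.88) and Serbp1 (0.87). Such values describe libraries that share animals, tissue mixture and depth, and carry no test.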

How the data were processed

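RNA-seq counts from 16 libraries (4 rats, 4 tissues) were analysed. Per the labels' protocols, RNA was extracted with Trizol and poly-A libraries were prepared with the stranded TruSeq kit for paired-end reading. Genome build rn5 and the tools Bowtie2 2.2.1, TopHat2 2.0.13, FastQC 0.11.3 and DESeq2 are listed in the submitters' processing notes. The strand setting, the annotation and the counting program are not given in the sources used here. Whether reads of overlapping and antisense genes were told apart is therefore not known. The authors deposited raw counts, whole numbers without normalization, for 14476 gene symbols.

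Groups and rats were taken from the labels. Counts were fitted with edgeR 4.0.16 (R 4.3.3, TMM factors, filterByExpr, quasi-likelihood F test) with 1 mean per group and all 16 libraries together. P-values were Benjamini-Hochberg adjusted over 12857 genes per comparison. Called genes had an adjusted p under 0.05, from this test where no other tool is named. The SE is the log2 fold change divided by the square root of F. Alternatives were RLE factors, no filter, DESeq2 1.42.0, limma-voom (limma 3.58.1) with sample quality weights, a fit of the 2 groups compared, rat as a block, marker levels as covariates and each library left out. The same alternatives were applied to the related genes and lists after the data were seen.

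The 7 genes, the gene lists and the naming rule were chosen with earlier results of these data known. Named genes were the 7 members, a panel (Pdpn, Tnfaip6, Ugdh, Has3, Hyal1, Hyal2, Cemip, Cd44, Lyve1, Thy1, Itga4 and Icam1, of which Cemip was not analysed), up to 3 called genes of each list and the 3 genes most correlated with each member. Others named were called genes of the same lists, or genes chosen after their values were seen (Tjp1, F11r, Uap1, Ugp2 and Gfpt1). Values of some genes that this rule names are not reported. Promoters came from RefSeq (GRCr8).

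Same-numbered libraries come from the same rat, per the labels, so numbers pair the samples. Their deviations from group means correlated at -0.348 to 0.505 (mean 0.0603, against -0.0198 between rats). Replicates of a group correlated at 0.907 to 0.982, none agreed within sampling noise, and all were kept. On simulated data with 2-fold and 4-fold changes, edgeR recovered 19% and 82% for IM against PFNU (12740 genes), 37% and 83% for the bones (12747 genes), 4% and 58% for the interaction (12755 genes), 37% and 85% for IM against PMMA bone (12751 genes) and 26% and 83% for PFNU against BNED (12739 genes). Of its calls 3.81, 6.98, 3.12, 1.61 and 3.54% were false, in the same order.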

Additional observations from a re-analysis of the deposited data

Results flagged for a closer look

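In 28 sets of 4 libraries (7 genes in 4 groups), 5 held a library whose gap to its nearest neighbour exceeded Dixon's 95% critical value for 4 samples. Chance alone marks about 1 in 20 such sets. PMMA bone of rat 1 was the library in 2 of them, with 52.0 CPM of Cd55, above the other PMMA bones, and 5.39 CPM of Tspan15, below them. The PFNU of rat 1 held 3.50 CPM of Has1, the BNED of rat 4 held 10.7 CPM of Has2, and the membrane of rat 2 held 124 CPM of Vcam1, each above the rest of its group. No cause was tested.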

How the results depend on the processing

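The number of members called between IM and PFNU, 0 in the reported fit, was 1 with DESeq2 and 0 to 1 with 1 library left out (1 without PFNU of rat 1). Between PMMA bone and BNED it was 0, and 4 with limma-voom, 1 with the muscle covariate and 0 to 2 with 1 library left out. For the interaction it was 0, and 1 with limma-voom and 0 to 1 with 1 left out. Between IM and PMMA bone it was 3, and 5 with DESeq2, 1 with the erythroid covariate and 2 to 4 with 1 left out. Between PFNU and BNED it was 5, and 1 with the muscle covariate, 0 with the erythroid covariate and 2 to 5 with 1 left out. It fell to 3 without PFNU of rat 2 and to 2 without BNED of rat 1 or rat 3. The replicate block for rat ended 1 of the 35 member results, the call of Clic5 between IM and PMMA bone (adjusted p = 0.0705, log2 2.06), and changed no other member call.

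Over all genes, IM against PFNU gave 111 calls, and 572 with DESeq2, 47 with the block, 361 with the muscle covariate, 3 with the erythroid covariate, and 0 with limma-voom or with those 2 groups alone (1558 and 1323 at an unadjusted p under 0.05). PMMA bone against BNED gave 631 calls, 1527 with DESeq2, 6244 with limma-voom, 1767 with those 2 groups alone, 2098 with the muscle covariate and 0 with the erythroid covariate. It gave 2578 without PMMA bone of rat 1, 0 without PMMA bone of rat 2, 3 or 4 or BNED of rat 1 or 3, 271 without BNED of rat 2 and 350 without BNED of rat 4.

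Signs turned, with no member passing after the turn, as follows on the log2 scale. With the erythroid covariate Vcam1 was at 0.14 for IM against PFNU and 0.52 for IM against PMMA bone, Has1 at -0.98 for PMMA bone against BNED and -1.43 for PFNU against BNED, and Cd55 at 1.44 for PFNU against BNED. With the muscle covariate Clic5 was at 0.99 for PMMA bone against BNED and, for IM against PMMA bone, Clic5 at -1.08, Tspan15 at -0.44 and Vcam1 at 0.12. For the interaction Prg4 was at -0.55 with limma-voom and -0.35 to 0.51 with 1 library left out, and Clic5 at -0.72 to 0.28. Among related genes, for IM against PFNU, Has3 was at 0.14 with the muscle covariate, and with the erythroid covariate Hyal1 was at -0.18 and Itga4 at 0.14. Icam1 was at 0.14 with limma-voom. With 1 library left out Hyal1 ranged from -0.46 to 0.57, Itga4 from -0.21 to 0.011 and Icam1 from -0.34 to 0.27. With the erythroid covariate Selp was at -0.25 for IM against PMMA bone and Stab2 at 0.19 for PFNU against BNED. The cause was not tested. Low counts limit Has1 and Has3 in bone.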
